A study of Rattus norvegicus with 17 samples.

Results

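The highest amount of isopropylated phenol phosphate in a short-term liver study, 611 mg/kg, was compared with its vehicle. The comparison took in the 3 arrays labelled with that dose and the 5 arrays labelled with a dose of 0, out of 17 arrays in the series. The chosen arrays were those with these dose labels and no measured value entered the choice. All rats were male Harlan Sprague-Dawley rats of unstated age that received corn oil by oral gavage, with or without the compound, on 4 consecutive days. On day 5 pieces of the left liver lobe were frozen and their RNA was run on Affymetrix rat arrays, 1 rat per array. The next lower dose, 305.5 mg/kg (3 rats), served as a second point of reference, and rats at 76.5 and 153 mg/kg entered only through the shared estimate of spread. Each array is a separate animal. The errors below are standard errors of a difference, from a spread between rats that was estimated jointly over all 17 arrays.

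Isopropylated phenol phosphate is a mixture of triaryl phosphates used as a flame retardant and plasticizer. The liver takes up and breaks down such compounds with enzymes that are themselves switched on by foreign chemicals, through the receptors CAR and PXR and the sensor NRF2. Hepatocytes of a grown rat rarely divide, and genes of mitosis are close to silent in resting liver. Transcripts of the circadian clock, of lipid metabolism and of hormone response vary widely in this tissue with time of day and feeding. The labels give neither the time of day of sampling nor the feeding state.

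Values are log2 signals, so a difference of 1 is a doubling of signal. A gene was called when its adjusted p in limma, corrected over 14217 genes by Benjamini-Hochberg, was under 0.05. The 8 livers had the profile of hepatocytes. The 11 measured hepatocyte markers, among them albumin and transthyretin, averaged at least 13.9 in every vehicle rat and at least 13.8 in every rat at 611 mg/kg, and limma called 0 of them, with 0 also at an unadjusted p under 0.05. By comparison, the median signal of the 13 pancreas genes in vehicle rats was 5.84, and 25.8% of all genes averaged below 6, so signals under about 6 lay near the level of genes the liver does not use. In RNA from whole tissue, fewer cells of a type and less RNA per cell cannot be told apart.

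Rat 2 at 611 mg/kg stood apart in its RNA controls. The signal at the 3′ end of GAPDH exceeded that at the 5′ end by 2.89 in rat 2, against 1.17 in rat 1, 1.04 in rat 3 and 1.13 to 1.56 in the vehicle rats. For actin the difference was 3.83 in rat 2, against 2.43 and 2.23 in the other treated rats and 2.29 to 2.90 in the vehicle rats. The treated mean exceeded the vehicle mean by 0.33 for GAPDH, and the difference between the groups did not pass the threshold for either control (two-sided exact permutation test, p = 0.714 for GAPDH and 0.571 for actin, where 0.0357 is the smallest p that 3 rats against 5 allow). Across genes, rat 2 correlated with the other arrays of the series at a median of 0.985. Each of the other 7 arrays compared did so at 0.990 or more. Rats 2 and 3 at 76.5 mg/kg, which entered the shared estimate of spread, were also low, at 0.988 and 0.985. Results are therefore given with this rat and without it.

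The livers of rats given 611 mg/kg differed from vehicle livers in 1060 of 14217 genes, of which 716 were higher and 344 lower. Genes of the clock, of drug metabolism and export and of cell division were among the largest rises, while a chemokine, a fatty acid desaturase, the taurine transporter and a cell cycle inhibitor led the falls. The background rates were 5.04% of genes called higher, 2.42% called lower and 7.46% called either way. At an unadjusted p under 0.05 in limma there were 3434 of the 14217 genes. Without treated rat 2 there were 1386 higher and 937 lower at that level. List counts at an unadjusted p under 0.05 are to be read against these numbers. Most differences were small: the median size among called genes was 0.53, and 118 genes differed by at least 1, 77 of them upward. The plot of difference against signal shows the largest of both kinds in the middle of the signal range. With all arrays centred on their medians the counts were 543 higher and 471 lower, and with repeated quantile normalization 553 and 412, so the balance of rises and falls depended on the scaling.

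**Figure D1:**
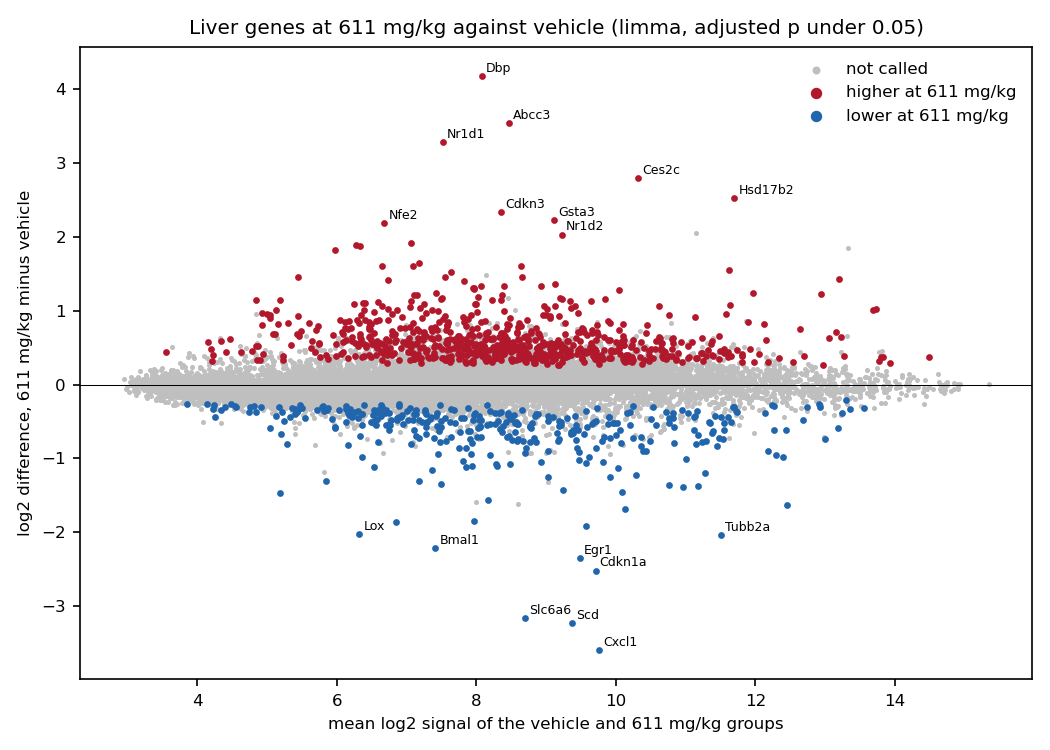
Log2 difference between the 611 mg/kg and vehicle means (vertical axis) against the mean log2 signal of both groups (horizontal axis) for 14217 genes, 1 point per gene. Red points are the 716 genes called higher and blue points the 344 called lower, grey points were not called, and names mark the genes of the 15 largest rises and 15 largest falls that differed by at least 2.

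Without rat 2 the comparison called 257 genes higher and 169 lower, 3% of genes in all. Of the 1060 genes called with every rat, 380 were called again and all 1060 had the same direction, while 46 others were gained. Rat 2 was the treated rat farthest from the vehicle mean for 59.8% of the called genes and for 55.8% of all genes. Other rats mattered less but visibly: the count of higher genes was 473 without vehicle rat 1, 432 without vehicle rat 5 and 476 without treated rat 3, and 229 genes were lower without vehicle rat 5. Of the 15 largest rises and 15 largest falls, 25 were called with each of the 8 rats left out in turn. The plot of differences with and without rat 2 shows the large changes on the diagonal and the lost calls among the small ones.

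**Figure D2:**
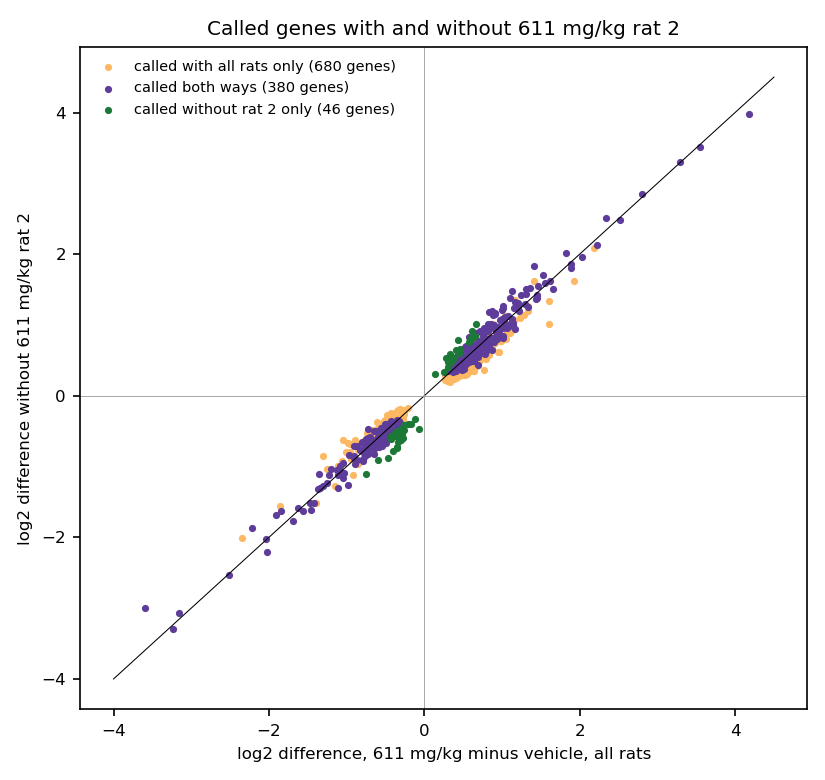
Log2 difference from vehicle without 611 mg/kg rat 2 (vertical axis) against the difference with all rats (horizontal axis), 1 point per gene called in either fit; the diagonal marks equal values. The 680 genes called with all rats only lie mostly at small differences, beside 380 genes called both ways and 46 called without rat 2 only.

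The 3 treated rats lay wholly outside the range of the 5 vehicle rats for 669 of the 716 higher genes and for 328 of the 344 lower genes. Among all genes, called or not, 11.5% had every treated rat above every vehicle rat and 7.13% had every treated rat below. The plot of the largest changes rat by rat shows the gap for the 30 genes with the largest differences of this kind. Absence of overlap was a condition for choosing these 30 genes, so where it is repeated below it adds no separate support for them.

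**Figure D3:**
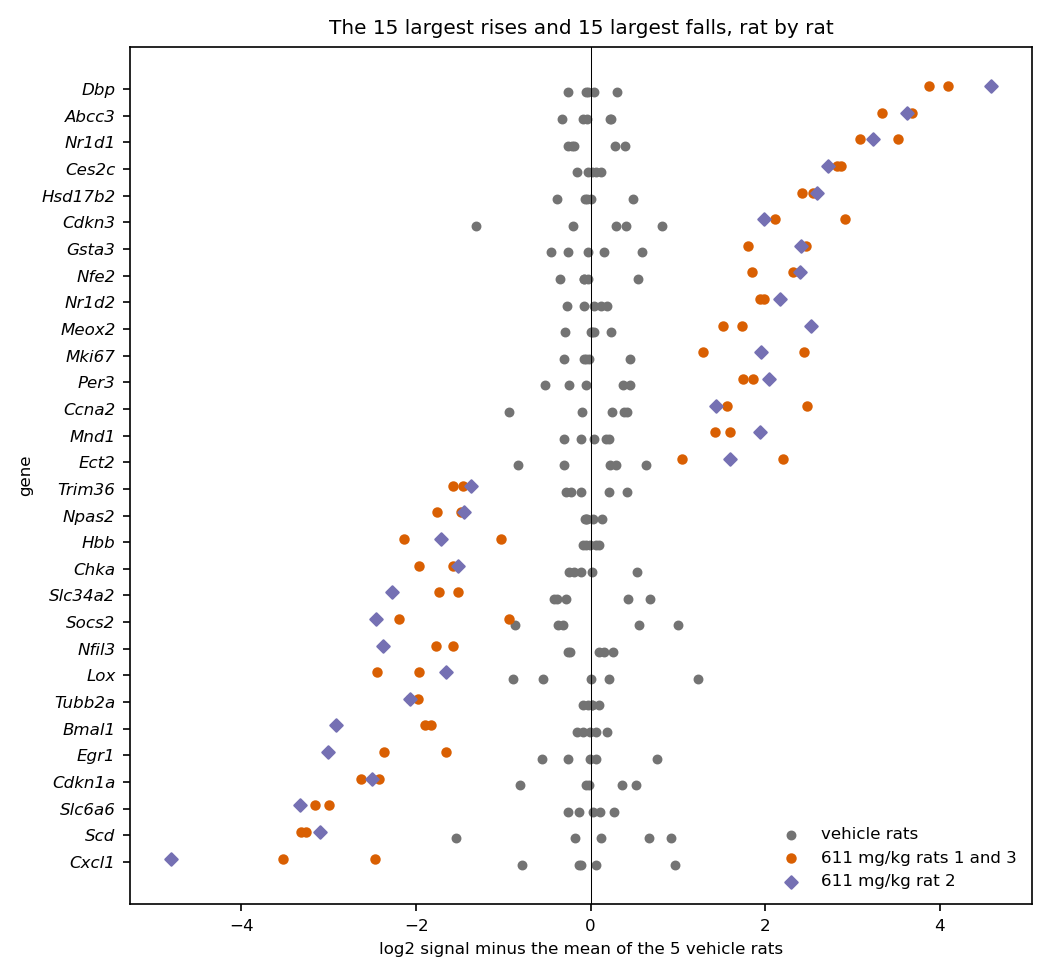
Log2 signal of each rat minus the mean of the 5 vehicle rats (horizontal axis) for the 15 largest rises and 15 largest falls among called genes with no overlap between the groups (vertical axis). Grey points are vehicle rats, orange points 611 mg/kg rats 1 and 3, and purple diamonds 611 mg/kg rat 2; all treated points lie beyond the grey ones of their row.

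Genes of mitosis and cytokinesis rose together. Of 50 measured members, 35 were called higher and 1 lower (Cit, the citron kinase of the cleavage furrow), against background rates of 5.04% and 2.42%, and the median difference of all 50 was 0.82, against -0.0029 over all genes. The rises ranged from 0.45 to 2.34. Without rat 2, 37 members were higher, among them 34 of the 35, and the median was 0.94. Treated rat 1 was the highest of the treated rats in 31 of the 35, and rat 2 the lowest in 19. Averaged over the list, the treated rats lay 1.22, 0.55 and 0.61 above the vehicle mean, vehicle rats ranged from -0.30 to 0.23, and vehicle rat 4 was the lowest.

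Cdkn3, a phosphatase that acts on cyclin-dependent kinases, rose most. Its signals were 7.59, 8.01, 7.48, 5.88 and 6.98 in vehicle rats and 10.10, 9.18 and 9.30 in treated rats. The treated rats lay above every control, and vehicle rat 4 was far below the other controls. The difference was 2.34 ± 0.39 (standard error from limma, 3 rats against 5), or 5.06-fold, with adjusted p = 0.00199.

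Mki67, which encodes the proliferation marker Ki-67, read 5.26, 5.79, 5.31, 5.03 and 5.28 in vehicle rats and 7.78, 7.28 and 6.61 in treated rats, a rise of 1.89 ± 0.24 (adjusted p = 0.000204 in limma). Its controls lay in the range of unused genes and all 3 treated rats above it. Ect2, a driver of the contractile ring, read 6.51, 6.92, 6.58, 5.46 and 5.99 in vehicle rats and 8.49, 7.89 and 7.34 in treated rats. The groups did not overlap, although the lowest treated rat was close to the highest control, and the rise was 1.61 ± 0.32 (adjusted p = 0.0065 in limma).

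The members with the smallest p-values included genes of the spindle and kinetochore. Bub1, a kinase of the spindle checkpoint, read 5.01, 4.92, 4.93, 4.49 and 4.24 in vehicle rats and 6.54, 5.98 and 6.01 in treated rats and rose by 1.46 ± 0.19 (adjusted p = 0.000278). The kinetochore gene Cenpw rose by 1.15, Arhgap11a, a regulator of the small GTPase RhoA, by 1.21, Birc5 (survivin), a subunit of the chromosomal passenger complex, by 1.04, and the mitotic kinesin Kif20b by 0.98, with adjusted p of 0.000178, 0.000545, 0.000625 and 0.00067 in limma. For each of these genes the treated rats were all above the controls. The 14 uncalled members included Cdc20 and Ube2c, parts of the machinery that destroys cyclins, and both were called once rat 2 was left out. Cdc20 read 8.29, 6.91 and 7.31 in the treated rats against 6.98, 7.02, 7.01, 6.53 and 6.89 in vehicle rats, so that rat 2 lay inside the control range and the other treated rats above it. Ube2c read 8.30, 6.71 and 7.18 against 6.93, 7.09, 6.79, 6.41 and 6.46, with the same order of treated rats.

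Many of these signals were dim. Of the 50 members, 23 averaged under 6 in vehicle rats, and when the dimmest 40% of genes were left out only 11 members remained, of which 10 were called higher. The plot of mitosis genes in each rat shows the list's average shifted upward in all 3 treated rats and most in rat 1.

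**Figure D4:**
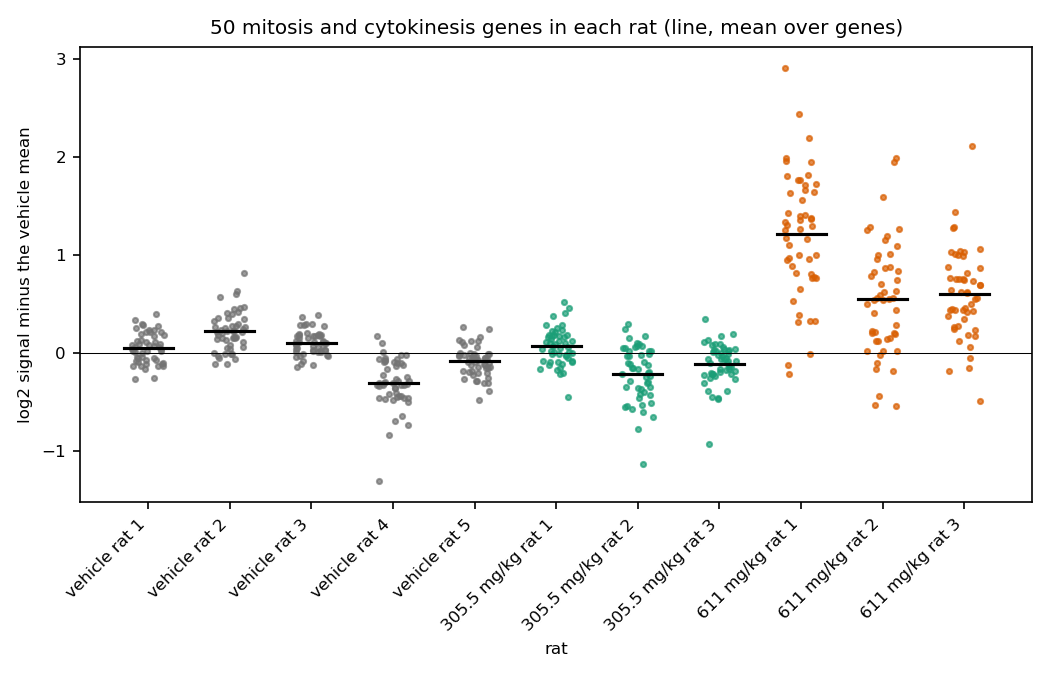
Log2 signal of 50 mitosis and cytokinesis genes minus the mean of the vehicle rats (vertical axis) in each rat given vehicle, 305.5 mg/kg or 611 mg/kg (horizontal axis), 1 point per gene, spread sideways at random, with a line at the mean over genes. The means of the 611 mg/kg rats are 1.22, 0.55 and 0.61, and those of the 305.5 mg/kg rats lie between -0.21 and 0.07.

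Promoters of several mitosis genes are shown because the members moved together and because promoters of such genes often hold the cell cycle homology region, an element read by the DREAM and MuvB complexes. The sequences are the 250 bases before the annotated start, 5′ to 3′ along the gene, from RefSeq (build GRCr8), with capitals marking TTTGAA on either strand. Mki67 (chr1:199952594-199952843, minus strand) held it in 2 places, Ect2 (chr2:111966627-111966876, minus strand), Kif20b (chr1:241840766-241841015, plus strand) and Birc5 (chr10:103571896-103572145, plus strand) in 1 each, and Bub1 (chr3:135504922-135505171, minus strand) in none. Of the other members named above, Cdkn3 held it once and Cenpw and Arhgap11a did not hold it.
Mki67: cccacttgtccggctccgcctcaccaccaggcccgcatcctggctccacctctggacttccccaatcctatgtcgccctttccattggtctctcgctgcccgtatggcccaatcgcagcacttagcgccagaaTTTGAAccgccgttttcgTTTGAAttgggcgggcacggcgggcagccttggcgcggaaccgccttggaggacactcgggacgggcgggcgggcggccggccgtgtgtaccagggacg
Ect2: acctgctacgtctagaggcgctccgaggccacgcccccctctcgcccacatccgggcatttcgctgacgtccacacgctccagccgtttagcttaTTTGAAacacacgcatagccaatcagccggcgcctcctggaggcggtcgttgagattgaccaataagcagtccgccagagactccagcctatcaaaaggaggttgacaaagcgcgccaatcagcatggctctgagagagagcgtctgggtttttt
Kif20b: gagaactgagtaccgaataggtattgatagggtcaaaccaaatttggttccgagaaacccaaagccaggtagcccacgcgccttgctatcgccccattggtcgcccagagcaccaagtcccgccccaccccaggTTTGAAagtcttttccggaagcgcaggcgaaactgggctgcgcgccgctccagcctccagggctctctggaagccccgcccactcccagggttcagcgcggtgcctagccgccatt
Birc5: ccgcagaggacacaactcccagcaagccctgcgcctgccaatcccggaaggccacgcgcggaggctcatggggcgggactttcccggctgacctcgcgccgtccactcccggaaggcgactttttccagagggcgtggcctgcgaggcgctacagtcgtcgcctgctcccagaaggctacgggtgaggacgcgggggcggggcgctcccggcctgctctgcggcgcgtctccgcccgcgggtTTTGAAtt
Bub1: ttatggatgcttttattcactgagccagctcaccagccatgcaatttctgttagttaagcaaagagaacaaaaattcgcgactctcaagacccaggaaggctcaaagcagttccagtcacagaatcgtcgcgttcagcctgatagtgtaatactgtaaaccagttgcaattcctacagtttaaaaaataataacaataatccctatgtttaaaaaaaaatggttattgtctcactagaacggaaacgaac
The letters TTTGAA were found in 22 of 45 mitosis members with a promoter in the table and in 17 of the 32 called higher, against 10.9% of the 11733 tested genes with one. A match of letters is a description of the sequence and not of a bound factor.

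Genes of DNA replication and S phase moved less. Of 44 measured members 7 were called, all of them higher, the median difference was 0.17, and 7 were called without rat 2, among them 6 of the same. When the fit held only the 2 groups compared, 11 were higher. Ccna2, the cyclin of S phase and mitotic entry, read 5.44, 5.48, 5.30, 4.13 and 4.96 in vehicle rats and 7.54, 6.49 and 6.63 in treated rats. All treated rats were above all controls, with rat 1 the highest, and the rise was 1.83 ± 0.27 (adjusted p = 0.000836 in limma). Its controls were all near background, so the size of the rise is uncertain. Hells, a chromatin remodeler used in replicating cells, rose by 1.30, Rrm1, a subunit of ribonucleotide reductase, by 0.67, Prim1, a DNA primase subunit, by 0.61, Dut, which clears dUTP, by 0.59, and Tk1, thymidine kinase, by 0.52, with adjusted p of 0.000286, 0.00132, 0.00723, 0.00818 and 0.00539. Treated rats exceeded every control for each of the 5, although a second probe set of Dut differed by 0.08. Signals of Hells were 7.29, 7.23, 7.40, 7.05 and 7.63 in vehicle rats and 8.52, 8.64 and 8.70 in treated rats, which agreed closely with each other. Mnd1, a partner of the recombinase Dmc1 and no member of the list, read 6.57, 6.54, 6.39, 6.05 and 6.25 in vehicle rats and 7.78, 8.29 and 7.96 in treated rats, a rise of 1.65 with its highest value in rat 2. The motif TTTNGCGC of E2F factors lay in 8 of 39 replication promoters, against 1.63% of tested genes, but not in those of Hells, Rrm1, Prim1, Dut or Tk1.

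Enzymes and transporters of the CAR and PXR programme rose. Of 20 measured members, 11 were called, all of them higher, the median difference was 0.51, and 10 of the 11 were called again without rat 2. Abcc3, an exporter of conjugates on the blood side of the hepatocyte, read 6.36, 6.92, 6.61, 6.92 and 6.66 in vehicle rats and 10.38, 10.32 and 10.03 in treated rats, a difference of 3.55 ± 0.36, or 11.7-fold (adjusted p = 4.34e-05 in limma). Ces2c, a carboxylesterase that cleaves esters, read 8.98, 8.90, 8.76, 8.94 and 9.04 in vehicle rats and 11.79, 11.64 and 11.75 in treated rats, a rise of 2.80 ± 0.16, or 6.97-fold (adjusted p = 1.99e-08). For both genes the controls and the treated rats each lay in a narrow band with a wide gap between.

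Ugt2b1, a glucuronosyltransferase, rose by 1.44, Aldh1a1, which makes retinoic acid, by 1.22, Cyp3a23-3a1, a steroid- and drug-oxidizing cytochrome P450, by 1.02, and Alas1, the first enzyme of heme synthesis, by 0.94. Their adjusted p-values in limma were 0.000131, 0.000322, 0.00166 and 0.000541. Aldh1a1 read 12.16, 12.59, 12.53, 12.004 and 12.39 in vehicle rats and 13.75, 13.63 and 13.30 in treated rats. Signals of Ugt2b1 were 12.20, 12.32, 12.25, 12.72 and 12.89 in vehicle rats and 13.85, 14.06 and 13.82 in treated rats. The groups overlapped for neither gene. The transporter Abcb1a, a drug exporter of the canalicular membrane, rose by 1.18 (adjusted p = 0.00946). Members of the esterase, P450 and transferase families are close in sequence, so a probe set may also read a relative, and values of single members are uncertain to that extent. Among 21 serine esterases and lipases 3 were higher and 1 lower, with a median difference of 0.06. Besides Ces2c, Nceh1, a cholesteryl ester hydrolase, rose by 1.21 and Bche, butyrylcholinesterase, by 0.55, while Lipc, hepatic lipase, fell by 0.30. Without rat 2 the calls of Bche and Lipc were lost (adjusted p = 0.186 and 0.107), and without treated rat 3 only 1 member was higher.

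Targets of NRF2 and genes of glutathione use rose in part: 11 of 31 were called, all of them higher, with a median of 0.36, and 8 were higher without rat 2, among them 7 of the same. The count was also 7 without treated rat 1, whose list average (0.71) exceeded those of rats 2 and 3 (0.39 and 0.30). This list shares Abcc2 and Abcc3, among others, with the CAR and PXR list. Gsta3, a glutathione transferase, read 7.97, 7.75, 8.16, 7.55 and 8.59 in vehicle rats and 10.47, 10.42 and 9.80 in treated rats, which were all higher, a rise of 2.23 ± 0.30 (adjusted p = 0.000408 in limma). Nqo1, a quinone reductase, rose by 1.03, Gsta4 by 0.84, the exporter Abcc2 by 0.47 and Gsta1 by 0.38, with adjusted p of 0.00911, 0.00267, 0.008 and 0.00367. Of 7 targets of the aryl hydrocarbon receptor, 2 were higher (Nqo1 and Cyp1a1) and the median was -0.17. Cyp1a1, a P450 that oxidizes aromatic hydrocarbons, read 6.87, 6.62 and 8.85 in treated rats against 6.17, 6.05, 5.82, 6.01 and 6.13 in vehicle rats. Rat 3 was far above the other treated rats, which were themselves above the controls, and the rise of 1.41 ± 0.34 had adjusted p = 0.0194. Without rat 3 the rise of Cyp1a1 was 0.71 and was still called.

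Hsd17b2, which oxidizes estradiol and testosterone to weaker steroids, was among the largest rises outside these lists. It read 10.39, 10.37, 10.44, 10.05 and 10.92 in vehicle rats and 12.98, 13.03 and 12.86 in treated rats, without overlap, a rise of 2.52 ± 0.32, or 5.75-fold (adjusted p = 0.000204 in limma). Meox2, a homeobox factor, read 6.12, 6.11, 6.14, 5.81 and 6.33 in vehicle rats and 7.83, 8.62 and 7.62 in treated rats. It rose by 1.92 with its highest signal in rat 2, and without that rat the rise of 1.62 was not called (adjusted p = 0.0873).

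Genes of the circadian clock changed in both directions. The mammalian clock is a loop in which Bmal1 with Clock or Npas2 switches on genes such as Dbp and Nr1d1, and Nr1d1 in turn represses Bmal1. Of 19 measured members 7 were higher and 4 lower, and all 11 were called again without rat 2. The called share, 57.9% of members, was second to that of mitosis among the lists. The median of the list was -0.08, with members on both sides of it.

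Dbp, an output factor of the clock, had the largest measured difference of all called genes. It read 6.03, 5.94, 5.96, 5.72 and 6.29 in vehicle rats and 10.08, 10.57 and 9.87 in treated rats, a rise of 4.18 ± 0.38 (adjusted p = 9.01e-06 in limma). Nr1d1, the repressor REV-ERB alpha, read 6.15, 5.66, 5.68, 5.61 and 6.27 in vehicle rats and 9.40, 9.11 and 8.96 in treated rats, a rise of 3.28 ± 0.22 (adjusted p = 1.25e-07). Controls of both genes sat near the level of unused genes, so the sizes of both rises are uncertain, and the treated rats were far above the controls. Its relative Nr1d2 rose by 2.03, the period gene Per3 by 1.88 and the output factor Tef by 1.07, with adjusted p of 4.2e-08, 0.00074 and 0.000131. Per3 read 4.87, 5.76, 5.15, 5.35 and 5.85 in vehicle rats and 7.14, 7.44 and 7.26 in treated rats. Other probe sets of these 3 genes showed less, down to 0.29 for Nr1d2, 0.01 for Per3 and 0.07 for Tef.

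Bmal1 and Npas2, of the positive arm, went the other way. Bmal1 read 8.58, 8.52, 8.71, 8.43 and 8.36 in vehicle rats and 6.69, 5.61 and 6.62 in treated rats, and fell by 2.21 ± 0.26 (adjusted p = 0.000131 in limma). The treated rats were all below the controls, rat 2 lowest. Npas2, its partner, read 8.88, 8.97, 8.90, 8.90 and 9.07 in vehicle rats and 7.46, 7.50 and 7.18 in treated rats, also without overlap, and fell by 1.56 ± 0.17 (adjusted p = 8.4e-05). Nfil3, a repressor that competes with Dbp for its sites, read 10.28, 10.27, 10.67, 10.61 and 10.78 in vehicle rats and 8.75, 8.15 and 8.94 in treated rats. It fell by 1.91 and the cryptochrome Cry1 by 1.11, with adjusted p of 0.000523 and 0.000717. Bhlhe41, a clock repressor with signals near background, rose by 0.69 (adjusted p = 0.00914). The promoter of Bmal1, shown because REV-ERB and ROR receptors are known to read the motif AGGTCA there, spans chr1:176766078-176766327 on the plus strand of GRCr8 (RefSeq), with that motif on either strand in capitals.
Bmal1: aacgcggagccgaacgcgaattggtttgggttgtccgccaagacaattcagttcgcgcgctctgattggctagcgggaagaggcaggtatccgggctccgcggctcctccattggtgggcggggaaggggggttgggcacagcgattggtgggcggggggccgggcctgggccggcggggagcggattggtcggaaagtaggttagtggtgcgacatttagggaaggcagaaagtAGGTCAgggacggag
The same letters were found in 11.3% of tested genes' promoters.

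The largest fall of all was in Cxcl1, a chemokine that draws neutrophils. It read 10.78, 11.43, 11.63, 12.53 and 11.46 in vehicle rats and 8.04, 6.76 and 9.09 in treated rats. Every treated rat was below every control, but the treated rats spread widely and rat 2 was lowest. It fell by 3.60 ± 0.69, or 12.1-fold (adjusted p = 0.00551 in limma), and 3.00 without rat 2 (adjusted p = 0.0434). Of 27 immediate early genes, which respond within minutes to stimuli, 5 were called, all of them lower and Cxcl1 itself among them. That was 18.5% of members against 7.46% of all genes. The median was -0.15, and 2 were lower without rat 2, Cxcl1 and Junb. Egr1, a transcription factor of this class, read 10.10, 11.41, 10.65, 10.72 and 10.39 in vehicle rats and 8.29, 7.64 and 8.998 in treated rats, all of them below the controls, and fell by 2.35 ± 0.52 (adjusted p = 0.0115), a call lost without rat 2 (adjusted p = 0.0798). Junb, a subunit of AP-1, fell by 1.08, Ier2 by 0.86 and Ier5 by 0.51, with adjusted p of 0.00149, 0.0184 and 0.0239, and of these Junb was called without rat 2. The 3 probe sets of Ier5 ranged from -0.51 to -0.06.

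Cdkn1a, the gene of p21, a brake on the cell cycle, read 10.95, 11.33, 10.92, 11.49 and 10.16 in vehicle rats and 8.55, 8.47 and 8.34 in treated rats. The treated rats agreed closely and lay below the lowest control. It fell by 2.52 ± 0.37, or 5.73-fold (adjusted p = 0.000696 in limma), and a second probe set fell by 0.85. Of 15 targets of p53, to which Cdkn1a belongs, 3 were higher and Cdkn1a alone was lower. Fas, a death receptor, rose by 0.71, Ccng1, cyclin G1, by 0.57, and Mdm2, the ligase that degrades p53, by 0.46, with adjusted p of 0.0104, 0.0422 and 0.0368. Rat 2 was the highest rat for Mdm2 and Ccng1, and without it both calls were lost. The count of higher members was 1 without treated rat 2, vehicle rat 1 or vehicle rat 5, and the probe sets of Mdm2 ranged from -0.04 to 0.75.

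Slc6a6, the taurine transporter, read 10.31, 10.02, 10.16, 10.39 and 10.55 in vehicle rats and 7.13, 6.95 and 7.29 in treated rats, and fell by 3.16 ± 0.29, or 8.93-fold (adjusted p = 9.01e-06 in limma). The gap between the groups was far wider than the scatter within either, and a second probe set fell by 2.18. Slc34a2, a phosphate transporter, fell by 1.84 and Chka, choline kinase alpha, by 1.69, with adjusted p of 0.00187 and 0.000696. Of 25 transporters of taurine, bile acids, lipids and drugs, 4 were higher and 5 lower, and 2 were lower without rat 2. The organic anion transporter Slc22a8 fell by 0.83 and its relative Slc22a7 by 0.31, calls that both were lost without rat 2, while the uptake carrier Slco2b1 rose by 0.34. The call of Slco2b1 was also lost without rat 2 (adjusted p = 0.101), and likewise when treated rat 1 or 3 or vehicle rat 2, 3 or 5 was left out, and its other probe set read -0.11.

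Cytoskeletal genes fell in part. Of 16 tubulins, actins and related genes 4 were lower and 1 higher, and 3 were lower without rat 2. Tubb2a, a beta tubulin, read 12.54, 12.53, 12.43, 12.49 and 12.61 in vehicle rats and 10.45, 10.45 and 10.54 in treated rats, and fell by 2.04 ± 0.23, or 4.11-fold (adjusted p = 0.000129 in limma). Both groups were tight and far apart. Tuba4a fell by 1.23, the tropomyosin Tpm4 by 0.71 and the actin Actg1 by 0.61, while the hepatocyte keratin Krt18 rose by 0.42, with adjusted p of 0.000942, 0.00128, 0.0321 and 0.04. The calls of Actg1 and Krt18 were lost without rat 2 (adjusted p = 0.22 and 0.0678). Trim36, a ubiquitin ligase tied to the cytoskeleton, read 5.81, 6.33, 5.69, 5.64 and 6.13 in vehicle rats and 4.46, 4.56 and 4.34 in treated rats and fell by 1.47, with most of these signals near background.

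Scd, the desaturase that makes oleic acid from stearic acid, read 11.11, 11.66, 11.91, 9.45 and 10.81 in vehicle rats and 7.72, 7.88 and 7.67 in treated rats. The treated rats agreed closely, while the controls ranged widely with vehicle rat 4 lowest. It fell by 3.23 ± 0.51, or 9.37-fold (adjusted p = 0.00129 in limma). Of 26 genes of fatty acid synthesis 2 were lower and 1 higher, with a median of -0.05. Leaving out any of vehicle rats 1 to 4, or treated rat 2 or 3, left 1 lower member. Lpin1, a phosphatidate phosphatase, fell by 1.39, lost without rat 2, and Thrsp, a lipogenic factor also counted as a thyroid hormone target, rose by 1.08 (adjusted p = 0.0438 and 0.0146).

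Among 41 targets of PPARA, the receptor that drives fat oxidation, 7 were lower and 2 higher, the median was -0.07, and 3 and 4 were lower without treated rat 2 or rat 3. Plin2, a coat protein of lipid droplets, read 12.80, 13.14, 12.92, 12.68 and 12.90 in vehicle rats and 11.97, 11.64 and 12.13 in treated rats without overlap, and fell by 0.98 ± 0.14 (adjusted p = 0.000696 in limma). Pdk4, a brake on pyruvate oxidation, fell by 1.25, Angptl4, an inhibitor of lipoprotein lipase, by 1.01, and the fatty acid hydroxylases Cyp4a3 and Cyp4a1 by 0.90 and 0.61. Their adjusted p-values were 0.0113, 0.0207, 0.0057 and 0.0115, and without rat 2 those of Pdk4 and Angptl4 were 0.0829 and 0.139. Plin5, another droplet protein, fell by 0.55 (adjusted p = 0.041), a call lost when any of the 3 treated rats was left out (adjusted p = 0.153 without rat 2). In the other direction Cyp4a8 rose by 1.02 and the glycerol channel Aqp7 by 0.66 (adjusted p = 0.00548 and 0.00751). The members of the Cyp4a family thus went both ways.

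Genes of cholesterol synthesis were mostly positive but below the threshold. Of 20 members 1 was called higher, Hsd17b7, which works late in the pathway, yet 18 had a positive difference, 8 (against 11.5% of all genes) had every treated rat above every control, and the median was 0.33. Hsd17b7 read 9.60, 9.60, 9.49, 9.26 and 9.33 in vehicle rats and 10.12, 10.51 and 10.34 in treated rats, which were all higher, a difference of 0.87 ± 0.23 (adjusted p = 0.0298 in limma, and 0.141 without rat 2). Fdft1, squalene synthase, differed by 0.56 ± 0.19, which was not called (adjusted p = 0.0731). In the fit that held only the 2 groups compared 8 members were called higher, Fdft1 among them (adjusted p = 0.0137), and 0 to 2 under the other alternatives.

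Bile acid genes were mixed, with 4 of 23 higher and 2 lower. Cyp8b1, which sets the share of cholic acid, read 11.77, 11.64, 11.62, 11.75 and 11.76 in vehicle rats and 12.34, 12.36 and 12.89 in treated rats with rat 3 the highest, and rose by 0.82 ± 0.15 (adjusted p = 0.00394 in limma). Amacr, a racemase in side chain shortening, rose by 0.63, and Nr0b2 (SHP), a repressor induced by the bile acid receptor FXR, by 1.04, with adjusted p of 0.000787 and 0.0287. Without rat 2 the adjusted p of Nr0b2 was 0.0702. Abcb4, the phosphatidylcholine floppase of bile, fell by 0.73, and Abcg8, part of the sterol exporter, by 1.12, with adjusted p of 0.00391 and 0.0201. Without treated rat 1 or rat 2 the count of lower members was 1.

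Lists of hormone-dependent genes differed in their called share. Of 16 genes of growth hormone and STAT5 signalling, 2 were called (12.5%, against 7.46% of all genes), both lower, and the median was -0.28. Socs2, a feedback inhibitor of growth hormone, read 8.34, 6.92, 8.79, 7.47 and 7.41 in vehicle rats and 6.85, 5.33 and 5.60 in treated rats and fell by 1.86 ± 0.38 (adjusted p = 0.00741 in limma, and 0.0566 without rat 2). Treated rat 1 was close to the lowest control. Igfbp3, a carrier of insulin-like growth factors, fell by 0.76 (adjusted p = 0.00211). Of 14 male-predominant and 13 female-predominant genes 0 were called in limma, with 5 and 0 at an unadjusted p under 0.05. The members with the smallest p were Cyp2c22 and Stac3, at -0.32 and -0.94, and Trim24 and Cyp2c12, at 0.53 and 0.54, with adjusted p of 0.0762, 0.0816, 0.218 and 0.244.

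Of 17 glucocorticoid-responsive genes 1 was higher and 2 lower, 17.6% of members against 7.46% of all genes. Mt2A, a metallothionein that binds zinc, rose by 1.03 and Tsc22d3, known as GILZ, fell by 0.90, with adjusted p of 0.0103 and 0.00435, and Angptl4 is the second lower member. Of 10 thyroid hormone targets Thrsp alone was called, and its call was lost without treated rat 3 (adjusted p = 0.0684) and with the mean over its probe sets (adjusted p = 0.0794). The gluconeogenic enzyme Pck1 differed by 0.44 and was not called (adjusted p = 0.0973).

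Stress programmes were called in few members. Of 33 genes of the ATF4 and amino acid response, 3 were called, all higher, and the median was 0.27. Without rat 2 limma called 0 of them, with 8 at an unadjusted p under 0.05, and without vehicle rat 1, vehicle rat 5 or treated rat 1 it called 1. Ddit4, an inhibitor of mTORC1, read 6.78, 7.02, 7.21, 7.64 and 6.97 in vehicle rats and 8.996, 8.10 and 8.50 in treated rats, which were all higher, and rose by 1.41, Trib3, a pseudokinase, by 1.07 and Pck2 by 0.57, with adjusted p in limma of 0.0296, 0.0298 and 0.0107 with all rats and 0.0516, 0.156 and 0.0772 without rat 2. Of 22 genes of the unfolded protein response Herpud1, a part of the degradation machinery of the endoplasmic reticulum, was called, at 0.48 (adjusted p = 0.0257). Its call was lost without treated rat 2 (adjusted p = 0.101), treated rat 3, vehicle rat 1 or vehicle rat 5. The chaperone Hyou1 differed by -0.62 (adjusted p = 0.0731). In limma 0 of the 15 heat shock genes were called, with 5 at an unadjusted p under 0.05, and those with the smallest p, Hspa1a and Cryab, differed by -0.74 and -0.30 (adjusted p = 0.0613 and 0.074). Of 43 proteasome genes 3 were higher, Psma1, Psme1 and Psmd5, by 0.30 to 0.38, and all 3 calls were lost without rat 2. Leaving out vehicle rat 2, 4 or 5, or treated rat 1 or 3, kept 1 call. Of these genes Pck2 had a second probe set at 0.06 and Psme1 one at -0.22.

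Few genes of central metabolism and of exported proteins were called. Of 46 genes of amino acid breakdown and the urea cycle, 2 were higher and 3 lower. Gpt, alanine aminotransferase, rose by 0.64 and Sdsl, a serine dehydratase relative, by 0.37, whereas Cbs, which begins transsulfuration, fell by 0.72, Agxt, which detoxifies glyoxylate, by 0.50 and Glud1, glutamate dehydrogenase, by 0.21. Their adjusted p-values in limma were 0.00987, 0.0493, 0.00558, 0.0196 and 0.0445, and without rat 2 Cbs was the one still called (adjusted p = 0.0207). Of 21 genes of glucose metabolism the insulin receptor gene Insr rose by 0.62, with a second probe set at 0.01, and Gckr, which holds glucokinase in the nucleus, fell by 0.50 (adjusted p = 0.0159 and 0.00433). The call of Insr was lost without treated rat 2 (adjusted p = 0.083) and without treated rat 3. A second probe set of Sdsl read 0.06.

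Of 15 heme genes 1 was higher (Alas1) and 2 lower (Clpx and Alas2), 20% of members against 7.46% of all genes. Alas2 belongs to red cell precursors and is counted again with the red cell genes below. Clpx, a chaperone that acts on the enzyme made by Alas1, fell by 0.76 (adjusted p = 0.000131 in limma). It read 11.54, 11.84, 11.83, 11.60 and 11.55 in vehicle rats and 10.89, 10.86 and 10.98 in treated rats, without overlap. Of 26 acute phase genes Mt2A was higher and Tfrc, the transferrin receptor, lower by 0.72 (adjusted p = 0.00723). Among 30 genes of complement and coagulation Pros1, protein S, rose by 0.31, while Masp1, a protease of the lectin pathway, and Serpind1, heparin cofactor II, fell by 0.52 and 0.38 (adjusted p = 0.0278, 0.00166 and 0.0382). The 3 probe sets of Masp1 reached -0.05, and leaving out vehicle rat 1, 3, 4 or 5, or treated rat 1 or 2, left 1 lower member.

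The 2 lists of genes that mark the zones of the liver lobule differed in their called share but hardly at an unadjusted p under 0.05. Of 17 pericentral genes 3 were higher and 1 lower, 23.5% of members against 7.46% of all genes, with 8 at an unadjusted p under 0.05. Of 17 periportal genes 0 were called in limma, with 7 at an unadjusted p under 0.05. Tbx3, a transcription factor of pericentral cells, rose by 0.90, although another of its 4 probe sets read -0.09, and Slc1a2, a glutamate carrier, rose by 0.42, with its second probe set at 0.06. Gulo, which makes vitamin C, fell by 0.48. The adjusted p-values were 0.00946, 0.0306 and 0.0481, and Aldh1a1 is the other higher member. Without rat 2 the calls of Slc1a2 and Gulo were lost (adjusted p = 0.0907 and 0.309), which left 2 members called, both higher. The periportal enzyme Ass1 differed by -0.41 (adjusted p = 0.0748), with its lowest signal in rat 2.

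Markers of endothelial cells, sinusoidal and general, were lower. All 12 measured members had a negative difference, 6 were called lower, and 5 of the 6 were called again without rat 2. The list average of the treated rats lay 0.50, 0.44 and 0.47 below the vehicle mean, against vehicle rats between -0.14 and 0.21. Stab2, a scavenger receptor of sinusoidal endothelial cells, read 9.76, 9.77, 10.09, 9.85 and 10.18 in vehicle rats and 9.09, 8.91 and 9.06 in treated rats, without overlap, and fell by 0.91 ± 0.13 (adjusted p = 0.000703 in limma). The Fc receptor Fcgr2b read 10.38, 10.36, 10.80, 10.25 and 10.59 in vehicle rats and 9.61, 9.94 and 9.50 in treated rats. It fell by 0.79, the hyaluronan receptor Lyve1 by 0.71, the adhesion molecule Pecam1 by 0.38, the VEGF receptor Kdr by 0.43 and Stab1 by 0.51. Their adjusted p-values were 0.00547, 0.00681, 0.0107, 0.0141 and 0.0287, and another probe set of Kdr read 0.03.

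Stellate cell and fibroblast markers leaned the same way, with all 16 members negative, 3 called lower and a median of -0.33. The count was 5 without treated rat 1, 1 without treated rat 3, and 6 with median centring. Lox, which crosslinks collagen, read 6.79, 6.44, 7.54, 7.34 and 8.56 in vehicle rats and 5.37, 5.68 and 4.89 in treated rats and fell by 2.02 ± 0.45 (adjusted p = 0.0122 in limma). Its controls ranged widely, its treated rats lay near background, and without treated rat 3 the adjusted p was 0.0555. The growth factor receptor Pdgfrb fell by 0.80, with another of its 3 probe sets at 0.09, and the actin Acta2 by 0.51 (adjusted p = 0.00466 and 0.0226), of which the latter was lost without rat 2 (adjusted p = 0.153). The collagen genes Col1a1 and Col3a1 differed by -0.26 and -0.38 and were not called (adjusted p = 0.322 and 0.0819). Signs were about as one-sided in lists near background. Negative differences were found for 13 of 13 pancreas, 13 of 15 lymphocyte and 7 of 8 neutrophil markers. A shared negative sign was therefore not particular to endothelial or stellate cell markers.

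Of 12 Kupffer cell markers the mannose receptor Mrc1, which endothelial cells also express, was called, lower by 0.61 (adjusted p = 0.00197 in limma), and 11 of the 12 were negative with a median of -0.34. Vehicle rat 2 had the lowest average of this list among controls (-0.34), inside the range of the treated rats (-0.42 to -0.17). Of 15 lymphocyte and 8 neutrophil markers 0 were called in limma, with 6 and 1 at an unadjusted p under 0.05, and their averages in vehicle rats (6.14 to 6.37 and 5.31 to 5.67) lay near background. Of 8 cholangiocyte markers Epcam rose by 0.72 and Krt7, near background, fell by 0.43, and both calls were lost without rat 2 (adjusted p = 0.124 and 0.22). Among pancreas genes Cela1, which the liver also expresses, was lower by 0.77, and among 7 adipocyte genes Lpl, lipoprotein lipase, was lower by 0.98 (adjusted p = 0.00636 and 0.008). The part of these cell types in the other falls was not tested.

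Of 11 red cell genes 3 were lower, 1 was higher and 7 were not called. Hbb, beta globin, read 13.18, 13.26, 13.21, 13.33 and 13.37 in vehicle rats and 12.25, 11.56 and 11.13 in treated rats. The controls were tight, and every treated rat was below them, rat 3 lowest. It fell by 1.63 ± 0.24, or 3.09-fold (adjusted p = 0.000689 in limma). Hba-a3, an alpha globin, read 11.81, 11.72, 11.67, 12.13 and 11.98 in vehicle rats and 10.92, 10.37 and 10.18 in treated rats, with the same order of treated rats. It fell by 1.37 and Alas2, the heme enzyme of red cell precursors, by 1.34, with adjusted p of 0.00404 and 0.0028, and all 3 calls held without rat 2. Globin genes have near-identical copies, so a value may combine several. The higher member was Nfe2, a factor of red cell and platelet precursors, which read 5.51, 5.56, 6.13, 5.23 and 5.51 in vehicle rats and 7.90, 7.98 and 7.44 in treated rats, a rise of 2.19 ± 0.57 (adjusted p = 0.0271), and whose call was lost with any treated rat or with vehicle rat 1, 4 or 5 left out. The share of blood in the tissue was not tested.

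The plot of called members by list sets these groups side by side.

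**Figure D5:**
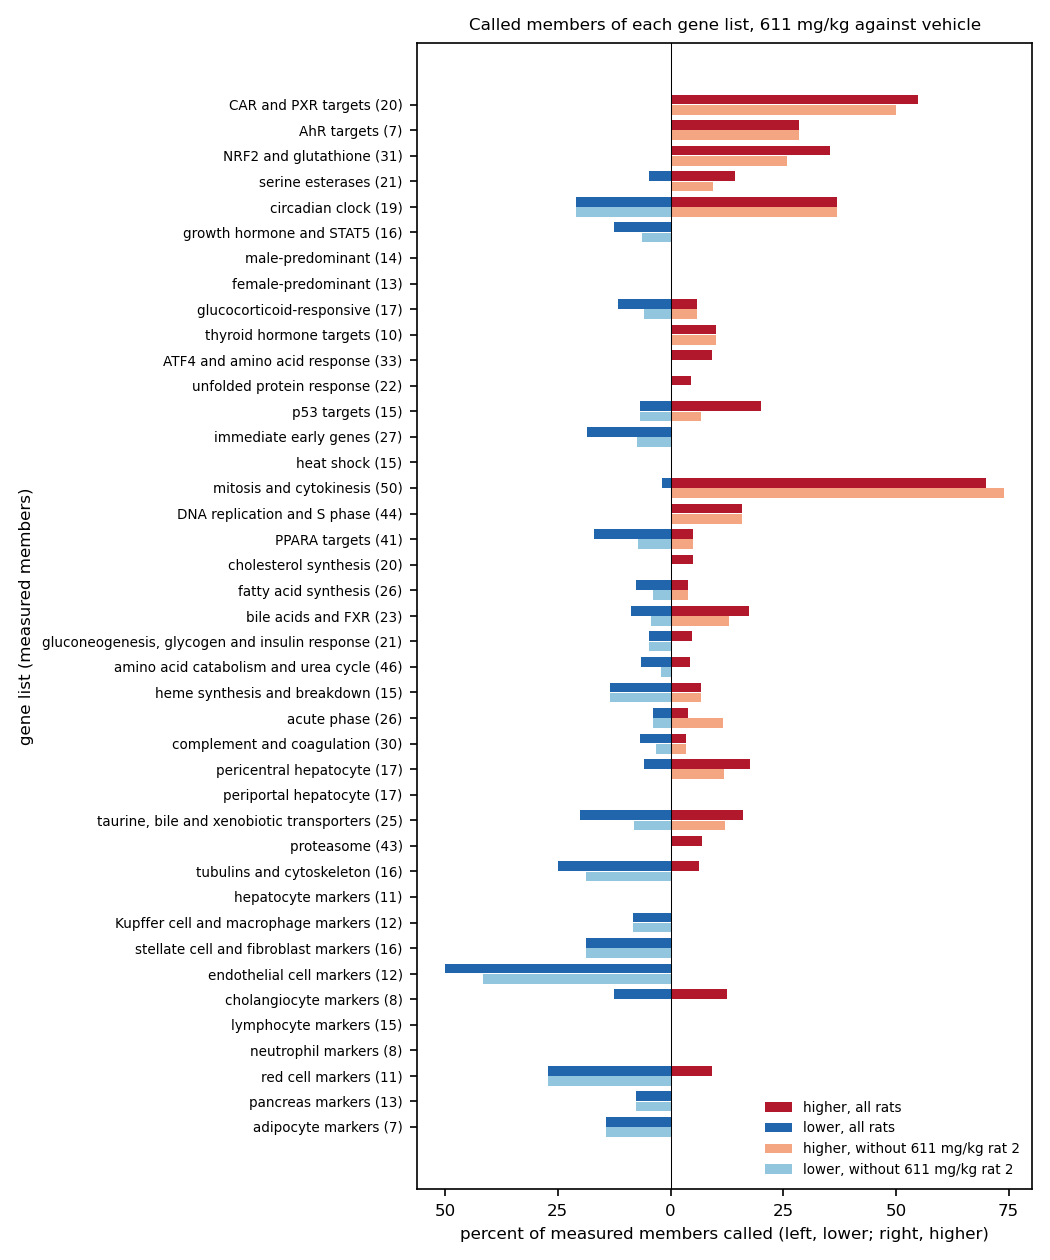
Percent of the measured members of each gene list (vertical axis, number of measured members in parentheses) called higher (right) or lower (left) at 611 mg/kg against vehicle (horizontal axis). Dark bars use all rats and light bars leave out 611 mg/kg rat 2; the longest bars are those of mitosis and cytokinesis, 35 and 37 of 50 members.

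Compared directly with the rats given 305.5 mg/kg, those given 611 mg/kg had 41 genes higher (0.288% of genes) and 5 lower (0.0352%). Of the 41, 22 belonged to the mitosis list. The comparison uses the same 3 treated rats as that with vehicle. The mitosis list had a median difference of 0.87 between the doses. Its averages at 305.5 mg/kg ranged from -0.21 to 0.07 relative to vehicle, inside the range of the controls. The count of 22 rested on the individual rats: it was 22 without treated rat 2, but 15, 4 and 7 without rat 1, 2 or 3 at 305.5 mg/kg and 12 without treated rat 1. The count of all higher genes was 10 and 11 without rat 2 or rat 3 at 305.5 mg/kg. The 5 lower genes became 9 without treated rat 1, 2 without rat 1 at 305.5 mg/kg, and 1 with any other rat of these doses left out.

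The largest of these rises were in Cdkn3, Ect2, Ccna2, Mki67 and Bub1. Cdkn3 read 7.60, 6.54 and 7.22 at 305.5 mg/kg and was 2.41 ± 0.44 higher at 611 mg/kg (adjusted p = 0.0225 in limma). Ect2 read 6.27, 5.16 and 5.37 and was 2.31 ± 0.36 higher (adjusted p = 0.0066), and Ccna2 read 4.97, 4.26 and 4.78 and was 2.22 ± 0.31 higher (adjusted p = 0.00388). For all 3 genes the rats of the lower dose lay within or below the range of the controls and beneath every rat of the top dose. Mki67 and Bub1 were higher by 1.83 and 1.70 (adjusted p = 0.00475 and 0.00214).

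Of the 5 genes lower than at 305.5 mg/kg, Chac1, which degrades glutathione and is a target of ATF4, read 9.83, 10.13 and 10.25 at that dose, 8.73, 8.60 and 7.91 at 611 mg/kg and 7.84, 7.82, 8.05, 7.44 and 7.71 in vehicle rats. The rats of the top dose thus lay closer to the controls than those of the lower dose, by 1.66 ± 0.34 (adjusted p = 0.0467 in limma), and did not differ from vehicle by a call (adjusted p = 0.206). The averages of the whole ATF4 list were 0.32, 0.31 and 0.22 at 611 mg/kg and 0.46 to 0.62 at 305.5 mg/kg, while Chac1 was its 1 called member. Hbb fell by 1.47 ± 0.26 against 305.5 mg/kg (adjusted p = 0.0203), where it read 13.22, 13.33 and 12.80. Spata2L, Sh3gl2 and LOC100912629 fell by 0.59, 0.48 and 0.47, the last 2 near background.

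The clock, drug metabolism and Scd values at 611 mg/kg did not differ by a call from those at 305.5 mg/kg, which does not show that they were equal. Dbp read 10.20, 9.98 and 10.39 at the lower dose (difference -0.02 ± 0.42), Nr1d1 9.46, 9.01 and 9.11 (-0.03 ± 0.24), Abcc3 10.43, 8.94 and 9.05 (0.77 ± 0.41) and Scd 7.10, 8.69 and 8.92 (-0.48 ± 0.57). Adjusted p-values in limma were 0.989, 0.963, 0.361 and 0.703. For Abcc3 rat 1 of the lower dose reached the level of the top dose and the other rats did not.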

How the data were processed

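The authors deposited 1 table of log2 expression values for 17 Affymetrix rat arrays, 1 liver per array, made with RMA per the submitters' processing notes; its software version is not given in the sources used here. RMA corrects background, normalizes quantiles across arrays and summarizes probes, so values are relative between arrays and the number of rats limits the precision. Of 31099 probe sets, 20826 had 1 gene symbol, 436 several and 9780 none, and 57 were controls. Per gene the probe set with the highest mean was used, giving 14217 genes. Groups came from the dose labels. Limma 3.58.1 in R 4.3.3 fitted all 17 arrays with a mean per dose and a trended prior (12 residual degrees of freedom), tested 611 mg/kg against vehicle and against 305.5 mg/kg, and adjusted p-values by Benjamini-Hochberg, with calls under 0.05. The step was tested on simulated data. Named genes were the 15 largest rises and 15 largest falls among called genes without overlap between the groups, the called members of each list with the smallest p (up to 6 in each direction, or the 2 smallest where fewer than 2 were called), the 5 largest called differences from 305.5 mg/kg in each direction, called and defining cell type markers, and the 3 largest calls lost and gained without rat 2. The gene lists and the comparison were chosen with earlier results of these data known. Promoters were 250 bases before the start in the RefSeq table of GRCr8. Alternatives covered probe set choice, low signals, scaling, the prior, a replicate block, a GAPDH covariate, stricter calls and each rat left out. Probe sets with several or no symbols were left out of the gene counts.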

Additional observations from a re-analysis of the deposited data

Results flagged for a closer look

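Of 237 genes checked, 16 had 1 vehicle rat whose gap to its nearest neighbour took up more than 0.71 of the range of the 5 vehicle rats, where chance gives about 1 in 20. Vehicle rat 2 was the separate rat for 9 of them, with gaps of 0.849 of the range for Abcb4, 0.827 for Ass1, 0.795 for Slco2b1, 0.762 for C1qb, 0.819 for Cd68, 0.767 for Kdr, 0.777 for Cd4, 0.858 for Ahsp and 0.825 for Ins2. It was lower than the other controls in 7 of these and higher for Abcb4 and Ahsp. C1qb and Cd68, markers of macrophages, read 9.46 and 8.91 in that rat, against 10.03 to 10.21 and 9.53 to 9.66 in the other controls.

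Vehicle rat 4 stood apart for Cyp2e1 (0.856 of the range), Tat (0.821), Reln (0.891), Cela1 (0.819) and Cdc20 (0.737), and vehicle rat 3 for Sdsl (0.770) and Dcn (0.799). Outside the gene counts, 106 of 10216 probe sets with several symbols or none were called at 611 mg/kg, 65 higher and 41 lower. That was 1.04% of them, against 7.46% of the genes tested.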

How the results depend on the processing

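Under 21 alternatives against vehicle and 19 against 305.5 mg/kg, 4521 of 5080 values of named genes kept their direction and their side of the threshold, 504 lost it, 55 gained it and 0 reversed. Leaving out 1 rat gave 257 to 718 genes higher and 169 to 340 lower than vehicle, and 10 to 55 higher and 1 to 9 lower than 305.5 mg/kg. Against vehicle 204 genes were higher and 126 lower at an adjusted p under 0.01, and 77 and 41 with a difference of at least 1. Against 305.5 mg/kg the counts were 12 and 0 at an adjusted p under 0.01 (959 lower at an unadjusted p under 0.05 in limma), 21 and 2 with a difference of at least 1, 12 and 1 without the dimmest 40% of genes, 11 and 1 with only the 2 groups compared, and 19 and 1 with GAPDH as a covariate. The count lower was 2 over all probe sets and 2 without the 3 arrays that stood apart. With the replicate number as a block, 215 genes were higher and 172 lower than vehicle, and 48 and 2 against 305.5 mg/kg. Same-numbered deviations correlated at 0.12, 0.16 and -0.10 for 611 mg/kg and vehicle, and at -0.23, -0.23 and 0.08 for both IPP doses. With so few rats these values cannot settle whether the numbers pair the rats, and the labels do not say. The cause of these changes was not tested.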
